A study of Mus musculus with 6 samples.

Results

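The Frizzled receptors were examined in fibroblasts of the pubertal mouse mammary gland. They were taken as the rows of the count table whose gene identifiers belong to *Fzd1* to *Fzd10*, and all 10 genes were present among the 27179 genes listed. CD34hi and CD34lo fibroblasts came from the mammary glands of FVB/N mice at 6 weeks of age, for which neither a transgene nor a treatment is named. Both were sorted as cells without the lineage markers CD31, CD45 and TER-119 and without CD24, but with Pdgfrα at the surface, and differed only in the CD34 gate. Each of 3 pools of 2 mice gave 1 library of either population, so that there were 3 libraries for each and 6 in all. RNA-seq counts per gene were compared, and log2 fold changes are given as CD34hi against CD34lo, with negative values for higher expression in CD34lo fibroblasts.

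Frizzled proteins are membrane receptors that bind Wnt ligands through a cysteine-rich domain outside the cell. Together with the co-receptors Lrp5 and Lrp6 they pass the signal to Dishevelled, which protects β-catenin from degradation, whereas with co-receptors such as Ror1, Ror2 and Ptk7 they act on cell polarity and movement without β-catenin. By sequence the genes fall into the subfamilies *Fzd1*, *Fzd2* and *Fzd7*; *Fzd5* and *Fzd8*; *Fzd3* and *Fzd6*; and *Fzd4*, *Fzd9* and *Fzd10*. In the mammary gland, Wnt signals pass between the stroma and the growing epithelial ducts.

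Frizzled receptors recruit Dishevelled through a short motif inside the cell, in which lysine and threonine are followed, after 3 variable residues, by tryptophan. In the GENCODE M21 transcripts (GRCm38) each of the 10 coding sequences held this motif exactly 1 time. In *Fzd1*, *Fzd2* and *Fzd7* it began 23 residues from the end of the protein, against 56 in *Fzd10*, 165 in *Fzd3* and 212 in *Fzd6*. The coding bases of the motif, the stretch through which the receptors meet their shared partner, are shown for 9 genes. *Fzd8*, in which the motif began 80 residues from the end, is not shown. Capitals mark the lysine, threonine and tryptophan codons.
Fzd1: AAGACActgaattccTGG
Fzd2: AAGACActgcactcgTGG
Fzd7: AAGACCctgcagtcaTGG
Fzd5: AAGACTctggagtctTGG
Fzd3: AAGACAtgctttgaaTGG
Fzd6: AAGACGtgcacagaaTGG
Fzd4: AAAACTcttcacacgTGG
Fzd9: AAGACTtttcagactTGG
Fzd10: AAGACCctgcagtccTGG

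These stretches lie in coding exons on GRCm38, at chr5:4755706-4755723 (minus strand) for *Fzd1*, chr11:102606373-102606390 (plus) for *Fzd2*, chr1:59484607-59484624 (plus) for *Fzd7*, chr1:64735011-64735028 (minus) for *Fzd5* and chr14:65212107-65212124 (minus) for *Fzd3*. Those of the other genes lie at chr15:39033949-39033966 (plus) for *Fzd6*, chr7:89408241-89408258 (plus) for *Fzd4*, chr5:135249416-135249433 (minus) for *Fzd9* and chr5:128602796-128602813 (plus) for *Fzd10*. The whole coding sequence lay in 1 exon in *Fzd1*, *Fzd2*, *Fzd5*, *Fzd7*, *Fzd8*, *Fzd9* and *Fzd10*, in 2 exons in *Fzd4*, and in 6 exons in *Fzd3* and *Fzd6*. The coding sequences of *Fzd1* and *Fzd2* were identical at 82.0% of aligned bases, with a longest shared stretch of 47 bases. *Fzd1* and *Fzd7* also shared at most 47 bases, and *Fzd2* and *Fzd7* at most 38. A read that lies wholly inside such a stretch could not be assigned to a single gene, and how the counting treated it is not given in the sources used here.

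The libraries held between 28764779 and 52402410 counts on genes, and 3 counts, the smallest amount taken as detectable, corresponded to between 0.0553 and 0.108 CPM (a gene's counts as a part of 1e+06 TMM-scaled counts of the library), a floor that covers counting error only. All 10 Frizzled genes were among the 15219 genes that passed the filter on low counts. *Cd34* itself lay between 2490 and 2640 CPM in CD34hi and between 476 and 793 CPM in CD34lo libraries. *Pdgfra* lay at 637, 703 and 922 CPM in CD34hi and at 1040, 1320 and 1420 CPM in CD34lo libraries. Its log2 fold change was -0.74 (edgeR adjusted p = 0.0148). *Cd24a*, the gene of CD24, lay at 21.8, 20.7 and 14.3 CPM in CD34hi and at 5.20, 5.43 and 4.56 CPM in CD34lo libraries. Its log2 fold change was 1.90 (edgeR adjusted p = 0.000103). The fibroblast markers *Dcn*, *Lum*, *Pdgfra*, *Col1a2* and *Igfbp5* summed to between 28400 and 36400 CPM per library. *Igfbp5* was higher in CD34hi fibroblasts, with a log2 fold change of 3.45. *Lum*, *Pdgfra* and *Col1a2* were higher in CD34lo fibroblasts, at -1.28, -0.74 and -0.69, and *Dcn* did not pass (edgeR adjusted p = 0.176). Of 33 markers of 8 other cell types, 26 were tested, of which 5 were higher in CD34hi and 12 in CD34lo fibroblasts. Among all tested genes, 16.9% were higher in CD34hi and 18.7% in CD34lo fibroblasts, at an edgeR adjusted p-value under 0.05. In these bulk samples, fewer cells of a kind and less RNA per cell cannot be told apart.

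Per transcript length, *Fzd1* was the most abundant Frizzled gene in both populations. In CD34lo fibroblasts it stood alone, at 43.8 ± 8.20 RPKM (SD, n = 3), and its lowest library at 35.4 RPKM exceeded the highest value of the next gene, *Fzd7*, at 11.9 RPKM. *Fzd7*, *Fzd4*, *Fzd2*, *Fzd8* and *Fzd5* followed with mean levels between 5.65 and 10.0 RPKM, and within this run no gene was separated from the next by its 3 libraries. *Fzd10* and *Fzd3* came after a gap, at 1.36 and 1.29 RPKM, and *Fzd6* and *Fzd9* were lowest, at 0.306 and 0.208 RPKM.

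In CD34hi fibroblasts the order was flatter at the top. *Fzd1* had 10.7 ± 1.39 RPKM (SD, n = 3) and *Fzd2* had 9.47 ± 1.35 RPKM, with overlapping libraries, and both lay above *Fzd7* at 6.82 ± 1.38 RPKM, whose libraries did not reach those of *Fzd2*. *Fzd4*, *Fzd8*, *Fzd10* and *Fzd5* followed, from 5.82 down to 3.46 RPKM, each overlapping with the next. *Fzd3* and *Fzd6* were at 0.448 and 0.443 RPKM, and *Fzd9* was at 0.0650 RPKM.

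The levels of the 10 genes summed to 44.8, 45.3 and 51.7 RPKM in the CD34hi libraries and to 80.9, 81.3 and 96.0 RPKM in the CD34lo libraries. *Fzd1* made up 22.1%, 21.7% and 23.7% of this sum in CD34hi fibroblasts and 54.4%, 43.6% and 54.0% in CD34lo fibroblasts. Without *Fzd1*, the sums were 34.9, 35.5 and 39.4 RPKM in CD34hi against 36.9, 45.8 and 44.2 RPKM in CD34lo libraries. These sums overlapped between the populations, but within each pool the CD34lo sum was the higher. *Fzd2* took 19.98% ± 1.23 (SD, n = 3) of the CD34hi sum and 8.71% ± 1.30 of the CD34lo sum. *Fzd10* took 10.6% ± 5.38 and 1.55% ± 0.526.

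**Figure D1:**
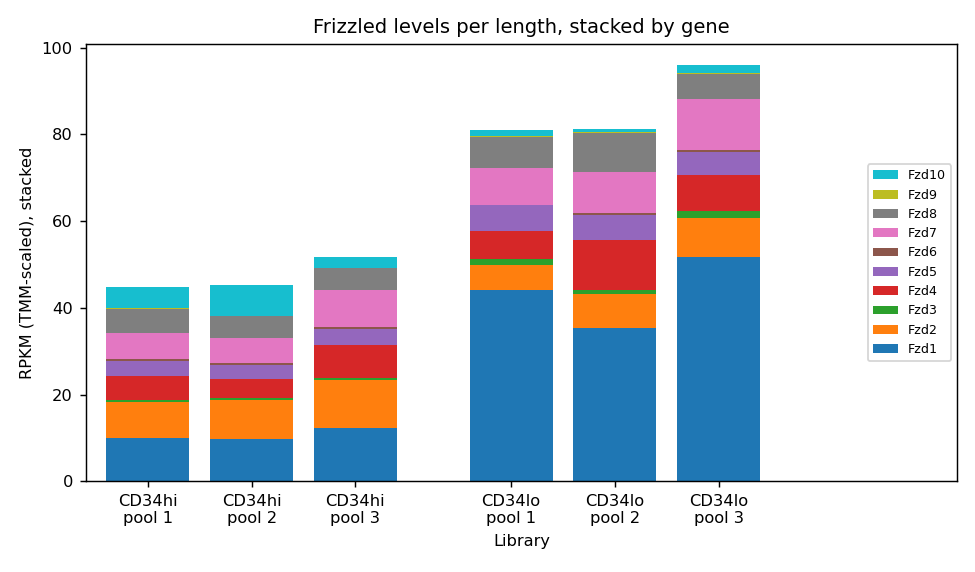
Stacked bars of the level per length of each Frizzled gene in RPKM (vertical axis, from 0) in the 3 CD34hi and the 3 CD34lo libraries (horizontal axis). *Fzd1*, at the base of each bar, reached 35.4 to 51.8 RPKM in CD34lo against 9.81 to 12.3 RPKM in CD34hi libraries, whereas the sums of the other genes overlapped between the populations, with the higher one in CD34lo in each pool.

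Between the populations, 5 of the 10 Frizzled genes passed the threshold of 0.05 on p-values that edgeR's quasi-likelihood model gave and that were adjusted over all tested genes by Benjamini-Hochberg, in a background in which 35.6% of the tested genes did. *Fzd1*, *Fzd3*, *Fzd5* and *Fzd7* were higher in CD34lo fibroblasts, the direction called for 18.7% of the tested genes, and *Fzd10* was higher in CD34hi fibroblasts, the direction called for 16.9%. The median log2 fold change of the 10 genes was -0.57, beside -0.0064 for all tested genes. When the mouse pool entered the edgeR model as a replicate block, 7 of 10 differed, in a background of 40.5%, since *Fzd2* and *Fzd8* were added. This fit uses the pairing of the libraries. Its edgeR adjusted p-values were 1.25e-06 for *Fzd1*, 4.28e-05 for *Fzd3*, 0.00117 for *Fzd5*, 0.00334 for *Fzd7* and 0.00576 for *Fzd10*. The standard errors were 0.15 for *Fzd3* and 0.11 for *Fzd7*, against 0.24 and 0.18 without the block, and 0.12 for *Fzd5*, against 0.11. The CPM values of the 3 CD34hi and the 3 CD34lo libraries did not overlap for 7 of the 10 genes, against 50.1% of all tested genes. Among these 7, *Fzd9* had only 11, 6 and 0 counts in the CD34hi libraries. It passed the filter on low counts only through its CD34lo libraries, so its separation follows in part from the filter.

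**Figure D2:**
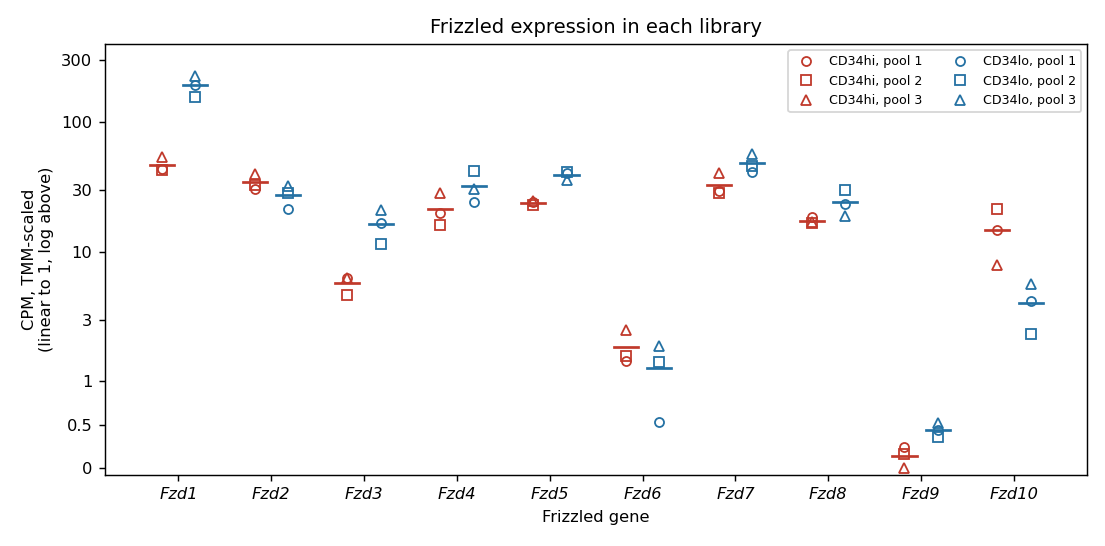
Normalized expression of the 10 Frizzled genes in CPM (vertical axis, linear up to 1 and logarithmic above) in each library, with the mouse pools as symbols and the mean of 3 libraries as a line. CD34lo libraries (blue) lay above all CD34hi libraries (red) for *Fzd1*, *Fzd3*, *Fzd5*, *Fzd7*, *Fzd8* and *Fzd9*, and below them for *Fzd10*. *Fzd9* was near the limit of detection and passed the filter on low counts only through its CD34lo libraries.

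*Fzd1* (gene 14362, chromosome 5, 4753839 to 4758216), a receptor for Wnt ligands that act through β-catenin, had the largest fitted log2 fold change of the family, but not in every alternative. Without pool 3 that of *Fzd10* was larger in size, at 2.44 against -2.01 for *Fzd1*, and without CD34hi library 3 both were 2.15 in size. *Fzd9* was at -2.55 in limma-voom, against -2.03 for *Fzd1*, and at -2.44 without pool 1, against -1.96. Without CD34hi library 1 these 2 genes were again at -2.44 and -1.96. Without CD34lo library 3, *Fzd10* was at 2.15, against -1.90 for *Fzd1*. *Fzd1* had 43.3, 43.0 and 53.7 CPM in the CD34hi libraries of pools 1, 2 and 3, and 193, 155 and 227 CPM in the CD34lo libraries. The lowest CD34lo library was well above the highest CD34hi library. The log2 fold change was -2.04 ± 0.17 (SE; edgeR adjusted p = 3.76e-05), a 4.11-fold difference, and within the 3 pools the log2 ratios were -2.16, -1.85 and -2.08.

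Its relatives in the subfamily had smaller log2 fold changes. *Fzd7* (gene 14369, chromosome 1, 59482147 to 59486955), a receptor used in stem and progenitor cells of several epithelia, had 29.4, 28.6 and 40.5 CPM in CD34hi and 41.1, 46.2 and 57.1 CPM in CD34lo libraries. The groups did not overlap, but the highest CD34hi and the lowest CD34lo library were close. Its log2 fold change was -0.55 ± 0.18 (SE; edgeR adjusted p = 0.0385) and was similar within the pools, at -0.48, -0.69 and -0.50. With the replicate block the fitted value was -0.56 ± 0.11 (SE), with an edgeR adjusted p = 0.00334. The call of the main test was lost without pool 1 (edgeR adjusted p = 0.109) and without pool 2 (0.191). It was also lost without any of 4 single libraries, CD34hi 1 (0.147), CD34hi 2 (0.145), CD34lo 2 (0.0633) and CD34lo 3 (0.127).

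*Fzd2* (gene 57265, chromosome 11, 102604431 to 102608058), a receptor that also takes part in Wnt5a signalling, had 30.7, 32.5 and 39.9 CPM in CD34hi and 21.2, 28.4 and 32.3 CPM in CD34lo libraries, and the populations overlapped. The log2 fold change of 0.33 ± 0.18 (SE) had an adjusted p = 0.176 in edgeR. Within the pools the ratios all had the same sign, at 0.53, 0.19 and 0.31, and with the replicate block the fitted value was 0.35 with an edgeR adjusted p = 0.0456.

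Ratios between genes of the same library do not depend on how libraries are scaled. Per length, *Fzd1* stood at 1.17, 1.10 and 1.11 times *Fzd2* in the CD34hi libraries, and at 7.54, 4.53 and 5.83 times *Fzd2* in the CD34lo libraries. *Fzd2* stood at 1.38, 1.51 and 1.31 times *Fzd7* in CD34hi and at 0.683, 0.815 and 0.749 times *Fzd7* in CD34lo libraries. In each pool the populations held the 3 genes in different proportions, with *Fzd2* above *Fzd7* in each CD34hi and below it in each CD34lo library.

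*Fzd3* (gene 14365, chromosome 14, 65192441 to 65262463) and *Fzd6* (gene 14368, chromosome 15, 39006280 to 39038192) are known for roles in planar cell polarity, the alignment of cells within a tissue plane. *Fzd3* had 6.26, 4.64 and 6.22 CPM in CD34hi and 16.8, 11.4 and 21.0 CPM in CD34lo libraries, without overlap. Its log2 fold change was -1.52 ± 0.24 (SE; edgeR adjusted p = 0.00121), a 2.88-fold difference, with -1.42, -1.30 and -1.76 in the pools. *Fzd6* was low in both populations, with 64, 57 and 113 counts (1.43, 1.57 and 2.49 CPM) in CD34hi and 29, 39 and 58 counts (0.535, 1.40 and 1.86 CPM) in CD34lo libraries. The populations overlapped, and the log2 fold change of 0.56 ± 0.46 (SE) did not pass (edgeR adjusted p = 0.377). Within the pools the log2 ratios were 1.42, 0.17 and 0.42, and the fitted value ranged from 0.19 without CD34lo library 1 to 0.98 without CD34lo library 3.

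*Fzd5* (gene 14367, chromosome 1, 64730558 to 64737750), which encodes a receptor of Wnt signalling through β-catenin, had 24.0, 23.0 and 24.8 CPM in CD34hi and 40.4, 40.9 and 35.8 CPM in CD34lo libraries. The spread within each population was small beside the gap between them. The log2 fold change was -0.71 ± 0.11 (SE; edgeR adjusted p = 0.00132), with -0.75, -0.83 and -0.53 in the pools. In the GENCODE annotation a gene model of the opposite strand (*Gm38058*), which has no row of its own in the count table, covers 1232 bases of the *Fzd5* exons, so that without a strand setting its reads could not be told from those of *Fzd5*.

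*Fzd8* (gene 14370, chromosome 18, 9212856 to 9216201), the closest relative of *Fzd5*, had 18.6, 16.5 and 16.8 CPM in CD34hi and 23.5, 29.8 and 19.0 CPM in CD34lo libraries, without overlap. The CD34lo library of pool 3 nearly touched the highest CD34hi library. Its log2 fold change of -0.48 ± 0.17 (SE) had an adjusted p = 0.0580 in edgeR, and 0.0383 with the replicate block, which gave -0.45. The value leaned on pool 2, whose log2 ratio was -0.85 against -0.34 in pool 1 and -0.18 in pool 3. Without pool 2 it was -0.26 (edgeR adjusted p = 0.396), and without CD34lo library 2 it was -0.30 (0.168). Without pool 3 it was -0.60 (edgeR adjusted p = 0.0413), and without CD34lo library 3 it was -0.62 (0.0194).

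**Figure D3:**
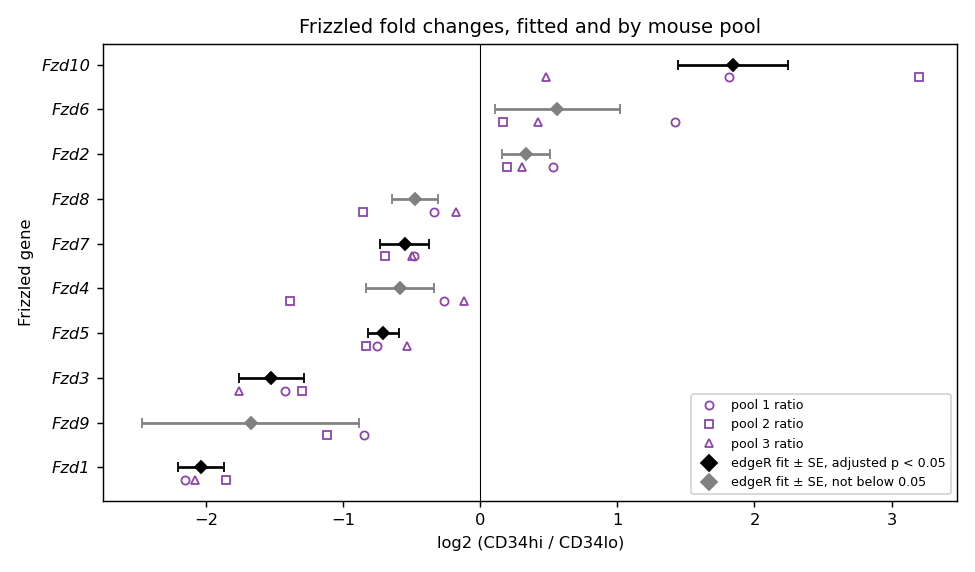
Log2 fold changes of the Frizzled genes, CD34hi against CD34lo (horizontal axis), as fitted by edgeR (diamonds with standard error, black where the adjusted p-value was under 0.05 and grey otherwise), with the CPM ratio within each mouse pool below (open symbols). *Fzd1* at -2.04 and *Fzd10* at 1.85 lay at the ends of the called genes, and the pools of *Fzd10* ranged from 0.48 to 3.20. Pool 3 of *Fzd9* has no symbol because its CD34hi library had 0 counts.

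*Fzd10* (gene 93897, chromosome 5, 128601106 to 128604093), a receptor expressed in few adult tissues, was the only member called higher in CD34hi fibroblasts. It had 14.7, 21.4 and 7.87 CPM in CD34hi and 4.17, 2.34 and 5.66 CPM in CD34lo libraries, which did not overlap. The log2 fold change was 1.85 ± 0.40 (SE; edgeR adjusted p = 0.00696). The size differed between pools, with log2 ratios of 1.82 in pool 1, 3.20 in pool 2 and 0.48 in pool 3. Without pool 2 the fitted value was 1.21 (edgeR adjusted p = 0.0391), and without pool 3 it was 2.44 (0.00498). At 418 bases before the *Fzd10* row lies the non-coding gene *Fzd10os* on the opposite strand. It had 17.0, 14.8 and 11.8 CPM in CD34hi and 2.78, 3.20 and 3.66 CPM in CD34lo libraries, a log2 fold change of 2.18 ± 0.19 (SE; edgeR adjusted p = 5.33e-05). The rows of *Fzd10* and *Fzd10os* do not overlap.

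*Fzd4* (gene 14366, chromosome 7, 89404366 to 89410110), the receptor for Norrin as well as for Wnt ligands and known for its role in blood vessels, had 20.01, 16.0 and 28.3 CPM in CD34hi and 24.1, 41.9 and 30.7 CPM in CD34lo libraries. The populations overlapped, and the log2 fold change of -0.58 ± 0.25 (SE) did not pass (edgeR adjusted p = 0.103). The difference lay mostly in pool 2, with a log2 ratio of -1.39 against -0.27 in pool 1 and -0.12 in pool 3. Without pool 2 the fitted value was -0.18 (edgeR adjusted p = 0.643), without CD34lo library 2 it was -0.35 (0.308), and without CD34hi library 3 it was -0.83 (0.0298).

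The endothelial markers *Pecam1*, *Vwf*, *Cdh5* and *Kdr* summed to between 50.1 and 94.9 CPM in CD34hi and between 33.3 and 55.2 CPM in CD34lo libraries. *Kdr* was higher in CD34hi, *Pecam1* and *Cdh5* were higher in CD34lo fibroblasts, and *Vwf* did not pass. Most of the CD34hi sums was *Kdr*, at 54.6, 70.9 and 33.9 CPM against 4.57, 8.16 and 5.43 CPM in CD34lo libraries. The pericyte markers *Rgs5*, *Mcam*, *Notch3* and *Kcnj8* summed to between 33.9 and 45.5 CPM in CD34hi and between 50.9 and 77.0 CPM in CD34lo libraries. *Kcnj8* was higher in CD34hi and the other 3 were higher in CD34lo fibroblasts. Most of the CD34hi sums was *Kcnj8*, at 37.0, 27.5 and 39.6 CPM against 9.39, 16.6 and 13.9 CPM in CD34lo libraries. Most of the CD34lo sums was *Notch3*, at 56.1, 43.5 and 29.6 CPM against 6.06, 4.28 and 2.98 CPM in CD34hi libraries. The macrophage markers *C1qa*, *Cd68*, *Fcgr1*, *Fcgr2b* and *Cd163* summed to between 2.57 and 3.20 CPM in CD34hi and between 27.3 and 48.6 CPM in CD34lo libraries. Almost all of this sum in CD34lo fibroblasts was *Fcgr2b*, at 43.4, 23.6 and 40.9 CPM and the only gene of the list that was called. *Cd68* and *Fcgr1* did not pass (edgeR adjusted p = 0.0563 and 0.930), and *C1qa* and *Cd163* were too low to be tested, with 117 and 20 counts in all libraries. The epithelial markers summed to between 34.7 and 41.1 CPM in CD34hi and between 68.8 and 69.7 CPM in CD34lo libraries. Most of the gap was *Acta2*, at 3.24, 3.23 and 3.24 CPM in CD34hi against 38.2, 28.1 and 33.6 CPM in CD34lo libraries. *Acta2* and *Itga6* were called higher in CD34lo fibroblasts, and *Epcam*, *Krt8*, *Krt18* and *Krt14* did not pass. Both keratinocyte markers were higher in CD34hi fibroblasts, with sums between 14.3 and 19.9 CPM against 3.60 and 7.12 CPM. Those of muscle and adipocytes summed to at most 3.88 and 1.81 CPM in any library. The part of these cells in the Frizzled differences was not tested.

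*Fzd9* (gene 14371, chromosome 5, 135248938 to 135251047) was near the limit of detection, with 11, 6 and 0 counts in CD34hi and 24, 10 and 16 counts in CD34lo libraries. The CPM values did not overlap, at 0.246, 0.166 and 0 against 0.443, 0.360 and 0.514, but the log2 fold change of -1.67 had a standard error of 0.79 and did not pass (edgeR adjusted p = 0.135). The value was -1.07 without CD34hi library 3, the one with 0 counts, and ranged from -0.95 without pool 3 to -2.44 without pool 1. It did not pass the filter when at least 10 counts were required in every library.

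The partners of the receptors were described through 7 lists of 87 genes of the Wnt pathway, of which 72 were tested. Of these, 50 (69.4%) passed the same threshold in edgeR, 17 higher in CD34hi and 33 higher in CD34lo fibroblasts, beside 35.6% of all tested genes. The lists were chosen with earlier results of these data known, so this share cannot show that the pathway differs more than other genes. Beside the counts of each list below stand 16.9% of all tested genes called higher in CD34hi and 18.7% in CD34lo fibroblasts. Their median log2 fold change was -0.30. With the replicate block, 50 differed as well, where *Lgr5* passed (edgeR adjusted p = 0.00867, against 0.0694) and *Tcf7l2* did not (0.0590, against a value that rounds to 0.05 and lies just under it).

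**Figure D4:**
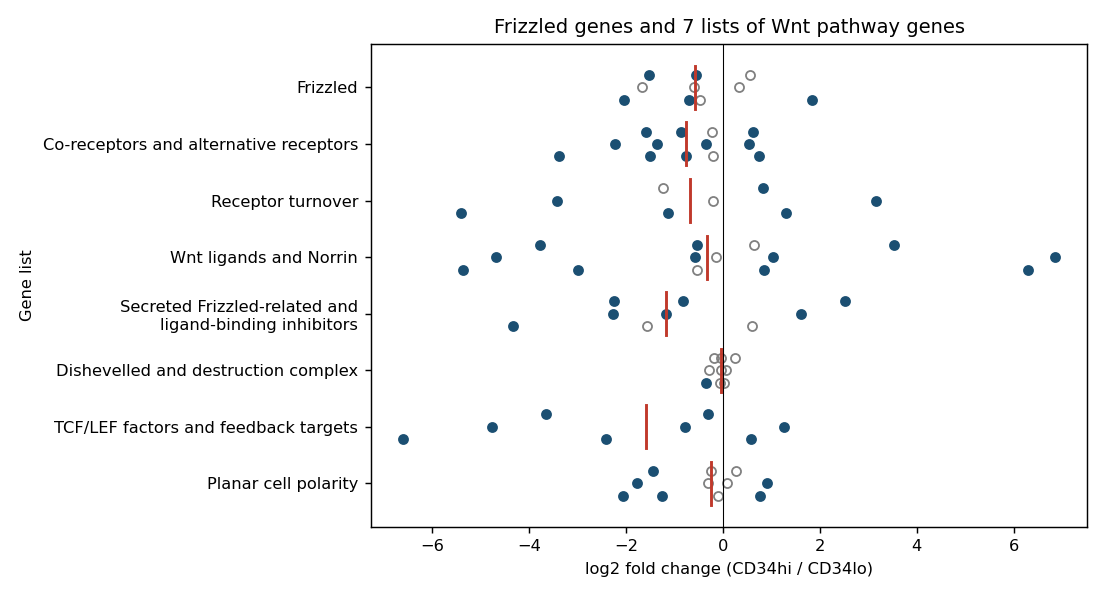
Log2 fold changes, CD34hi against CD34lo (horizontal axis), of the Frizzled genes and of the tested genes in 7 lists of Wnt pathway genes (vertical axis), filled where the adjusted p-value was under 0.05, with the median of each list as a red line. The Dishevelled and destruction complex genes lay close to 0, and the genes of the other lists were spread to both sides.

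Among 13 co-receptors and alternative receptors, all were tested, 8 were higher in CD34lo and 3 in CD34hi fibroblasts, and the median log2 fold change was -0.75. *Lrp5* and *Lrp6*, the co-receptors of the β-catenin route, had log2 fold changes of -1.35 and -0.75. The kinase-like receptors of the polarity route had log2 fold changes of -3.37 for *Ptk7*, -2.23 for *Ror1* and -1.58 for *Ror2*. *Ptk7* had 13.3, 10.1 and 12.6 CPM in CD34hi against 145, 92.9 and 136 CPM in CD34lo libraries. *Ryk*, an atypical kinase that binds Wnt ligands, was at -0.35. The genes higher in CD34hi fibroblasts were *Gpc6*, a glypican, at 0.76, *Reck*, a membrane-anchored protease inhibitor that also takes part in Wnt7 recognition, at 0.62, and *Tspan12*, a tetraspanin partner of Fzd4, at 0.53. *Smo*, the Hedgehog transducer of the same receptor class, and *Gpc4* did not pass, at -0.21 and -0.22.

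Receptor turnover is set by the ubiquitin ligases Znrf3 and Rnf43, which remove Frizzled proteins from the surface, and by the R-spondins, which bind Lgr receptors and counteract the ligases. *Znrf3* had 5.66, 6.15 and 5.69 CPM in CD34hi against 13.3, 12.4 and 12.8 CPM in CD34lo libraries, a log2 fold change of -1.14 (edgeR adjusted p = 0.000263), whereas *Rnf43* had 30 counts in all 6 libraries and was not tested. Of the 8 tested genes of this list, 3 were higher in each population. *Lgr4*, *Rspo2* and *Rspo3* were higher in CD34hi fibroblasts, at 0.82, 3.16 and 1.31, and *Znrf3*, *Rspo1* and *Rspo4* were higher in CD34lo fibroblasts. *Rspo4* was low, with 0.246, 0.0276 and 0 CPM in CD34hi against 5.29, 2.27 and 4.6 CPM in CD34lo libraries.

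Of the 20 ligand genes, the Wnt genes and *Ndp* (Norrin), 14 were tested, 5 of which were higher in CD34hi and 6 in CD34lo fibroblasts. *Wnt10b*, with 72.4, 82.1 and 53.9 CPM against 0.609, 0.575 and 0.611 CPM, was the ligand with the largest difference towards CD34hi, and *Wnt4*, with 1.27, 0.469 and 0.529 CPM against 42.5, 20.3 and 31.5 CPM, the one with the largest towards CD34lo. *Wnt5a*, a ligand of the polarity route, was at -0.13 and did not pass (edgeR adjusted p = 0.467). *Ndp* had 34 counts in all libraries and was not tested.

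Secreted Frizzled-related proteins carry a cysteine-rich domain like that of the receptors and bind Wnt ligands outside the cell. Of the 9 tested inhibitors, 2 were higher in CD34hi and 5 in CD34lo fibroblasts. Both genes higher in CD34hi were of the secreted Frizzled-related group, *Sfrp4* with 742, 692 and 738 CPM against 114, 169 and 95.1 CPM, and *Sfrp2* with 363, 341 and 363 CPM against 101, 136 and 110 CPM. Their log2 fold changes were 2.52 and 1.62. *Sfrp1*, *Frzb* and *Sfrp5*, of the same group, were higher in CD34lo fibroblasts, at -1.17, -4.32 and -2.25, as were *Dkk3* and *Kremen1*, at -2.27 and -0.82. *Sfrp1* had 75.0, 112 and 96.5 CPM in CD34hi against 172, 217 and 249 CPM in CD34lo libraries. *Frzb* and *Sfrp5* were low, with at most 0.309 and 0.221 CPM in a CD34hi and 7.23 and 0.885 CPM in a CD34lo library.

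Dishevelled and the destruction complex act directly below the receptors. Of their 9 genes, all tested, only *Gsk3a* was called, beside 35.6% of all tested genes, and the difference from that share was not tested. *Gsk3a* was at -0.36 (edgeR adjusted p = 0.0212), and the median log2 fold change of the list was -0.046. The Dishevelled genes *Dvl1*, *Dvl2* and *Dvl3* were at 0.25, -0.046 and -0.031, each with a standard error of 0.11 or 0.12, and *Ctnnb1*, which encodes β-catenin, was at 0.015 ± 0.11 (SE).

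The TCF/LEF factors and feedback targets differed in both directions. All 8 tested genes of 11 were called, 6 higher in CD34lo and 2 in CD34hi fibroblasts, with a median of -1.59. *Axin2*, a feedback inhibitor and common reporter of the β-catenin route, had 19.8, 23.2 and 28.8 CPM in CD34hi and 33.8, 45.0 and 44.7 CPM in CD34lo libraries, a log2 fold change of -0.78 ± 0.17 (SE; edgeR adjusted p = 0.00799). *Nkd1* and *Nkd2*, which bind Dishevelled, were at -2.40 and -3.65, *Tcf7* was at -4.76 and *Tnfrsf19* was at -6.59. *Apcdd1*, a membrane inhibitor of Wnt signalling, and *Tcf7l1*, a largely repressive factor, were higher in CD34hi fibroblasts, at 1.27 and 0.59. *Lef1* had 3 counts in all 6 libraries.

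Of 11 tested planar cell polarity genes, 4 were higher in CD34lo and 2 in CD34hi fibroblasts. *Prickle1*, *Prickle2*, *Daam2* and *Dact3* had log2 fold changes of -2.06, -1.24, -1.78 and -1.44, and *Daam1* and *Dact1* had 0.91 and 0.77. *Vangl1* and *Vangl2*, which encode core membrane proteins of this route, were at -0.31 and 0.27 and did not pass (adjusted p = 0.246 and 0.358 from edgeR).

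The genes whose profile over the 6 libraries lay nearest to those of *Fzd1* and *Fzd10* were sought among 8873 genes with a mean log2 CPM of at least 3, by the Euclidean distance between log2 CPM values centred on each gene's mean. For *Fzd1* these were *Itga1*, *Emp2* and *Tec*, at distances of 0.215, 0.269 and 0.286, with log2 fold changes of -2.19, -2.08 and -1.90. For *Fzd10* they were *Has2*, *Ankrd46* and *Pgd*, at larger distances of 0.851, 0.904 and 1.08, with log2 fold changes of 2.06, 1.70 and 1.90. All 6 libraries enter each distance, the difference between the populations included.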

How the data were processed

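Per the labels and the methods of the study, RNA was extracted with the miRNeasy micro kit, and polyA libraries (TruSeq RNA v2) were sequenced on an Illumina instrument. The authors aligned the reads to GRCm38/mm10 and deposited raw counts per gene, made with Rsubread, without normalization or filter. The counting annotation, the strand setting and the treatment of reads with several matches are not given in the sources used here. Symbols were matched by gene identifier to RefSeq (GRCm38.p6), for 25275 of 27179 genes.

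In R 4.3.3, edgeR 4.0.16 was used with filterByExpr, TMM factors (0.967 to 1.04) and the quasi-likelihood test. P-values were adjusted by Benjamini-Hochberg over 15219 genes, with 0.05 as the threshold. The standard error was obtained from the fold change and the F statistic, as |log2 fold change| over √F. CPM used TMM-scaled totals of the tested genes, RPKM divided CPM by the deposited length in kilobases, and log2 CPM had a prior count of 2. Shares and orders of RPKM were not tested. On simulated counts for this comparison, with 200 of 15046 genes changed by 2 on the log2 scale, 98.5% were recovered and 8 calls were false. All genes were given the same dispersion and no pool effect, so the check does not cover smaller differences or genes of larger spread.

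The libraries pair by design, since same-numbered ones came from the same mice, and the deviations of same-numbered libraries correlated across genes with r = 0.279, 0.0844 and 0.243. The pool was not a covariate of the main test, because the study names none, so that test leaves the pairing out. The replicate block uses the pairing, and its calls are given beside those of the main test. An exact two-sided permutation test of 3 libraries against 3, without the pairing, cannot go below p = 0.1. Swaps within pools allow fewer arrangements still. Single genes are therefore given the p-values of the fit across all genes. Alternatives were limma-voom (limma 3.58.1), DESeq2 1.42.0, other normalizations, filters and thresholds, the replicate block, thinned counts, and each pool or library left out. The members and gene lists were chosen with earlier results of these data known. The named genes are the 10 members, the listed genes, the sort genes *Cd34* and *Cd24a*, the neighbour *Fzd10os* and, for the largest difference called in each direction, the 3 nearest profiles. The values of a further marker list are not reported here.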

Additional observations from a re-analysis of the deposited data

How the results depend on the processing

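The number of all genes that differed was 5411, and was 3444 at an adjusted p-value under 0.01, 2986 when a log2 difference of 1 or more was also required, and between 3468 and 5236 with a pool or library left out, the lowest without pool 1. The number of Frizzled genes was 5, and was 8 with the replicate block in limma-voom, where *Fzd4* was also called (adjusted p = 0.0484), 3 when a log2 difference of 1 or more was also required, and between 4 and 6 with a pool or library left out. The number of pathway genes was 50, and was 33 when a log2 difference of 1 or more was also required and between 39 and 49 with a pool or library left out. With the replicate block in edgeR these numbers were 6161, 7 and 50. No log2 fold change of a Frizzled gene changed sign in any of its alternatives, and *Fzd9* was not tested where a minimum of 10 counts was set for each library. *Fzd1*, *Fzd3* and *Fzd10* passed in all 20 alternatives. The adjusted p of *Fzd8* fell below 0.05 also with DESeq2 (0.0444), upper-quartile factors (0.0419) and thinned counts (0.0424), but was 0.157 without pool 1, 0.396 without pool 2 and 0.173 without CD34hi library 2. The share of *Fzd1* in the summed RPKM ranged from 21.9% to 23.4% in CD34hi and from 48.8% to 54.2% in CD34lo fibroblasts over its alternatives. Without gene length, the shares of *Fzd3* were 2.87% and 4.22% in CD34hi and CD34lo fibroblasts, since its gene model is long. Those of *Fzd5* were then 12.1% and 10.3%, above those of *Fzd8* at 8.78% and 6.4%, the reverse of their order per length. The cause of the changes under the other settings was not tested. Depth limits *Fzd9* and, less so, *Fzd6*, and the deposited models of *Fzd4* (3685 bases) and *Fzd8* (3346 bases) are shorter than the GENCODE transcripts (6720 and 5974 bases), so that their levels cover part of the transcript.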
